A study of Mus musculus with 8 samples.

Results

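Serosal resident macrophages are the self-maintaining macrophages of the pleural and peritoneal cavities, and 6 genes known for their expression in them are described here across mouse lung tissue after lung resection: Cd5l, Alox15, Timd4, Gata6, Icam2 and Vsig4. The genes were listed by name with earlier results of these arrays known. Cd5l and Alox15 are 2 genes that the study itself selected for a lower level after resection. The comparison of the surgeries is therefore a description of these 6 genes. Counts past a threshold are given for it below, and they are not a test of the 6 genes. All 6 of the 6 were measured, out of 18193 genes with a probe set of a single gene symbol. For every gene the brightest probe set on average over the arrays was used. Gata6 has 3 probe sets and the other genes have 1 each.

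In PNY animals the left lung was removed (left unilateral pneumonectomy), and in SHAM animals the left chest was opened and closed again with the lung left in place. All were female C57BL/6 mice of 10 to 12 weeks, ventilated during surgery and given the same anaesthesia and ampicillin. Lungs were sampled 6 hours and 1, 3 and 7 days later, and each of the 8 arrays carried RNA from equal amounts of tissue of 8 mice. There was thus 1 array for each surgery and time point, with no array before surgery or from unoperated mice. PNY tissue came from the lung that remained, and which lobes were sampled in SHAM animals is not given in the sources used here. The vessels were perfused before the lungs were taken out, and whether pleural fluid cells were washed off is not given either. The time points served as the 4 replicates of each surgery, so an SD below is a spread over time points and not between mice. Levels are log2 expression values, on which a difference of 1 is a doubling. They can be compared between arrays for 1 gene but not, as amounts of RNA, between genes. A level below the median of all probe sets is named only as a low signal. The array medians lay between 5.90 and 5.95.

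Serosal macrophages take up dying cells, bind complement-coated particles and release lipid mediators within the body cavities, and after injury of a covered organ they can move onto its surface. The transcription factor GATA6, induced by retinoic acid from the lining mesothelium, maintains their identity. None of the 6 genes is private to these cells: Icam2 is a gene of all endothelium, Gata6 is used by airway epithelium, smooth muscle and mesothelium, Alox15 is also a gene of eosinophils, and Cd5l, Timd4 and Vsig4 are also genes of liver and other tissue macrophages. In whole lung tissue, fewer cells of a type and less RNA per cell cannot be told apart.

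The sequence upstream of the start is shown for 3 of the 4 genes that shared the highest level in the same array, those found in the RefSeq promoter table (GRCm38.p6), as the stretch in which a GATA factor could bind. Each run is the 250 bases before the start used in that table, 5′ to 3′ on the strand of the gene, with the words AGATAA and TGATAA, searched on both strands, in capitals. The windows are chr3:87357631-87357880 (plus strand) for Cd5l, chr11:46810549-46810798 (plus strand) for Timd4 and chrX:96293439-96293688 (minus strand) for Vsig4.
Cd5l: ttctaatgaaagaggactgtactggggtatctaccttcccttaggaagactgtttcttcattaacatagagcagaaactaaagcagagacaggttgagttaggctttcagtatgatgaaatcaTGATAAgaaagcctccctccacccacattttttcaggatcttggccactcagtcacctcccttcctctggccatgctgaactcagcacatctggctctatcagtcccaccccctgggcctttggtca
Timd4: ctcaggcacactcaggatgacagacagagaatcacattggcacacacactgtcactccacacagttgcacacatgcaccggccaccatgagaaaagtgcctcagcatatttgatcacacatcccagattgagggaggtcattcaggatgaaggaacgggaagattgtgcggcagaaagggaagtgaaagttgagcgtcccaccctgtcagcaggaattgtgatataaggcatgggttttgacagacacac
Vsig4: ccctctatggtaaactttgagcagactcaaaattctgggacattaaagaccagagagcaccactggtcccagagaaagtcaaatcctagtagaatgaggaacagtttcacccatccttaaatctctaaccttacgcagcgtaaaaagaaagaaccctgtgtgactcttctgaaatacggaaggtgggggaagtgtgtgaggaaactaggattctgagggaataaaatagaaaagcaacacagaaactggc
The Cd5l window held 1 match, TGATAA, beginning 127 bases before the start, and the windows of Timd4 and Vsig4 held none. Of all 32851 promoter windows in the table, 5452 (16.6%) held at least 1 match. A match is a description of letters and not a binding site. Alox15 and Icam2 had no entry in the table, and Gata6 was left out of this search.

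Cd5l and Alox15, which encode a secreted protein and an enzyme, had the widest span over the arrays. Both were lowest on the PNY array of 6 hours and highest on the SHAM array of 7 days. Cd5l (probe set 1449193_at, chr3:87357881-87371074) encodes a secreted scavenger protein that macrophages make and that promotes their survival. In order of time (6 hours, then 1, 3 and 7 days) its level was 5.53, 6.66, 7.84 and 6.25 in PNY. In SHAM it was 6.22, 6.67, 7.96 and 8.72. At 1 and 3 days the levels of both surgeries lay side by side, and at 3 days they were 2.31 (PNY) and 1.74 (SHAM) above those of 6 hours. Then they parted, and the 7-day array stood at -1.59 relative to that of 3 days in PNY and at 0.76 in SHAM. At 7 days Cd5l was 5.56-fold lower in PNY than in SHAM. At 6 hours it was 1.61-fold lower. The differences at 1 and 3 days were -0.01 and -0.12. The ranges of the 4 PNY and the 4 SHAM arrays overlapped.

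Alox15 (1420338_at, chr11:70344147-70390538) encodes a lipoxygenase that oxygenates polyunsaturated fatty acids and so starts the making of several lipid mediators. It read 5.34, 5.56, 6.01 and 5.63 in PNY, in order of time, against 6.00, 6.01, 6.32 and 8.03 in SHAM. All arrays but SHAM of 7 days lay within 5.34 and 6.32, and that array stood 1.72 above the next highest. PNY was lower at all 4 time points, with differences of -0.66, -0.45, -0.31 and -2.41, and at 7 days it was 5.30-fold lower. The ranges overlapped only in that the PNY array of 3 days lay just above the SHAM array of 6 hours.

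The receptor genes Timd4 and Vsig4 gave low signals, at mean levels of 4.74 and 5.10, below the median level of all probe sets of 5.92. Timd4 (1455318_at, chr11:46810786-46844333), a receptor for phosphatidylserine on dying cells, read 4.64, 4.69, 4.62 and 4.38 in PNY and 4.96, 4.66, 4.80 and 5.18 in SHAM, in order of time. Its highest array was SHAM of 7 days and its lowest was PNY of 7 days, 1.74-fold apart. At 1 day the surgeries differed by 0.03. Vsig4 (1451651_at, chrX:96247201-96293438), a complement receptor of the immunoglobulin superfamily that also restrains T cells, read 4.95, 4.85, 4.83 and 5.16 in PNY and 5.15, 5.09, 4.96 and 5.80 in SHAM. PNY was lower at each time point, with differences of -0.20, -0.24, -0.13 and -0.64, the last a fold of 1.56. SHAM of 7 days was again the highest array, 0.64 above the next, which was PNY of 7 days. PNY and SHAM ranges overlapped for both receptors.

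The adhesion molecule and the transcription factor were not highest on the SHAM array of 7 days, unlike the other 4 genes. Icam2 (1448862_at, chr11:106377656-106388139), a ligand of the leukocyte integrin LFA-1, read 10.86, 10.87, 11.21 and 11.38 in PNY and 10.52, 10.91, 11.16 and 11.32 in SHAM, in order of time. It lay higher at each later time point in both surgeries, and its largest difference between them was 0.33, at 6 hours, with PNY the higher. Gata6 (1425464_at, chromosome 18) read 9.47, 9.49, 9.62 and 9.56 in PNY and 9.35, 9.55, 9.79 and 9.55 in SHAM, with an SD over all 8 arrays of 0.13. Its difference at 7 days was 0.01. The other Gata6 probe sets had mean differences of -0.07 (1425463_at) and 0.06 (1443081_at, which lay near the low end of the array at a mean of 4.63). In bulk lung neither gene can be assigned to macrophages. What Cd5l, Alox15, Timd4 and Vsig4 shared, and Gata6 and Icam2 did not, was 1 array, SHAM of 7 days, on which they were highest. Over the other arrays Cd5l went as closely with Gata6 (correlation 0.79) as with Alox15 (0.78), and Vsig4 went with neither Cd5l nor Alox15. The levels thus did not bear out the 6 genes as 1 group.

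**Figure D1:**
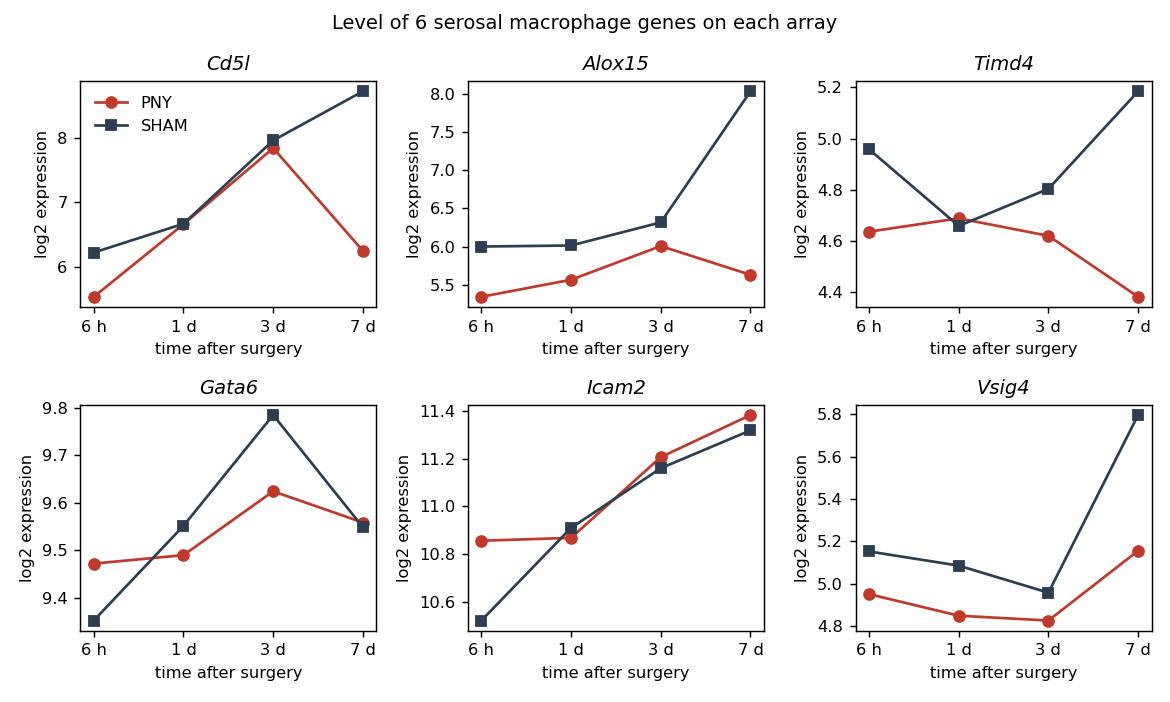
Log2 expression (vertical axis, scaled separately in each panel) of the 6 genes at each time after surgery (horizontal axis, not to scale), with 1 point per array, PNY as red circles and SHAM as dark squares. Cd5l, Alox15, Timd4 and Vsig4 have their highest point at SHAM of 7 days, where Cd5l reads 8.72 against 6.25 in PNY, while the lines of Gata6 and Icam2 meet at that time.

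Averaged over the 4 time points, the PNY minus SHAM difference was -0.82 ± 1.14 for Cd5l, -0.96 ± 0.98 for Alox15, -0.32 ± 0.35 for Timd4 and -0.30 ± 0.23 for Vsig4 (mean ± SD of the 4 differences, n = 4). It was -0.02 ± 0.12 for Gata6 and 0.10 ± 0.16 for Icam2. Cd5l and Alox15, with fold changes of -1.77 and -1.94, were the 2 of 6 genes past the thresholds of the study (a rank product P below 0.001 together with a fold change of 1.5 or more), in a comparison where 0.0555% of all 45037 probe sets passed as lower in PNY. Since both were selected by the study on these arrays, nothing is read from that count. The mean of each rested on the arrays of 7 days. Without the SHAM array of 7 days the difference was -0.38 for Cd5l and -0.48 for Alox15, without both arrays of 7 days it was -0.27 and -0.47, and neither gene passed then. For Vsig4 the values were -0.12 and -0.19, and for Timd4 -0.23 and -0.16. The small difference of Icam2 turned to -0.05 without the SHAM array of 6 hours, and that of Gata6 to 0.05 without the SHAM array of 3 days. Cd5l also missed the thresholds without the PNY array of 6 hours, at -0.48.

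The time points differed in how many of the 6 genes lay at least 1.5-fold lower in PNY. At 7 days these were 4 of 6 (Cd5l, Alox15, Timd4 and Vsig4), where 2.08% of all probe sets did so. At 6 hours they were 2 of 6 (Cd5l and Alox15), against 1.37% of all probe sets. At 1 and 3 days they were 0 of 6, against 1.59% and 0.746% of all probe sets. No member lay 1.5-fold higher in PNY at any time, where 0.877%, 2.19%, 1.18% and 1.57% of all probe sets did, in order of time. With 1 array per group at each time, these are differences between pooled samples and have no replicate check. The SD of the differences of all probe sets was 0.245, 0.278, 0.224 and 0.277 in order of time, so the 7-day arrays were no further apart as a whole than those of 1 day. SHAM of 7 days was the highest of the 8 arrays for 4 of the 6 genes and for 10.8% of all probe sets. PNY was lower at all 4 time points for Cd5l, Alox15 and Vsig4, as for 6.05% of all probe sets.

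The change with time was compared for both surgeries together, arrays of 3 and 7 days against those of 6 hours and 1 day, in a limma fit with surgery as a covariate. Cd5l was higher at the later times by 1.42 (SE 0.39), Alox15 by 0.77 (SE 0.33) and Icam2 by 0.48 (SE 0.11). The Alox15 value leaned on 1 array, SHAM of 7 days, at 8.03 where all other arrays lay between 5.34 and 6.32. Gata6 differed by 0.16 (SE 0.09), Vsig4 by 0.17 (SE 0.17) and Timd4 by 0.01 (SE 0.13). None of the 6 passed an adjusted p of 0.05 (limma, Benjamini-Hochberg over 45037 probe sets), where 0.0444% of the probe sets did and 15.8% had an unadjusted p under 0.05. The adjusted p was 0.135 for Icam2, 0.172 for Cd5l and 0.301 for Alox15, and 0.433 or more for the other 3. The unadjusted p was under 0.05 for these 3 genes, with 95% intervals of 0.54 to 2.30 for Cd5l, 0.03 to 1.51 for Alox15 and 0.23 to 0.72 for Icam2. The PNY minus SHAM difference itself shifted from the earlier to the later times by -0.95 (95% interval -2.70 to 0.80) for Cd5l, by -0.80 (-2.27 to 0.66) for Alox15 and by -0.35 (-0.92 to 0.23) for Timd4. For Vsig4, Gata6 and Icam2 the shift was -0.17, -0.10 and -0.09. This contrast uses the same differences as the description above. Every one of these shifts had an adjusted p of 0.9999 (limma), and 0% of all probe sets passed, with 2.77% at an unadjusted p under 0.05. A surgery effect that differs between early and late times was therefore not detected for these genes, with 2 arrays per surgery and period. The late period joins 3 and 7 days, whose differences were unlike for Cd5l (-0.12 and -2.47) and Alox15 (-0.31 and -2.41). This contrast could thus hardly detect a change present at 7 days alone.

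Another 18 genes known from serosal macrophages were measured. At 7 days 9 of the 18 lay at least 1.5-fold lower in PNY, beside 2.08% of all probe sets. On the SHAM array of that time 8 of the 18 had their highest level, beside 10.8% of all probe sets. The median differences of the 18 in order of time were -0.06, -0.02, 0.11 and -0.53, beside -0.72 for the 6 genes and 0.01 for all probe sets at 7 days. Past the study's thresholds 3 of the 18 fell (Serpinb2, Arg1 and Prg4), 0 rose and 15 did not pass. Of all probe sets 0.0555% fell and 0.315% rose. Serpinb2, Arg1 and Prg4 were all also selected by the study on these arrays and are not independent evidence. The study also selected Thbs1 among the 18, a matricellular glycoprotein, which lay higher in PNY at all 4 time points, by 0.04, 0.68, 0.92 and 0.54, and missed the fold threshold here at 1.46 (it is named after its values were seen). The 14 genes outside its table held 0 past the thresholds, 6 at least 1.5-fold lower at 7 days and a median of -0.35 at that time.

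Serpinb2, an inhibitor of plasminogen activators that serosal macrophages express strongly, read 4.91, 5.46, 5.76 and 5.10 in PNY and 5.69, 6.22, 6.00 and 8.68 in SHAM, in order of time. Its course was that of Alox15, with 1 array far above the rest and a fold of 12.0 at 7 days. Prg4, the lubricating proteoglycan of body cavities and joints, read 6.90, 6.17, 7.96 and 6.54 in PNY and 6.78, 6.55, 8.29 and 8.93 in SHAM. From 3 to 7 days its course was like that of Cd5l. From 6 hours to 1 day Prg4 fell in both surgeries, where Cd5l rose. Arg1, the arginase of alternatively activated macrophages, was 11.3-fold lower in PNY at 7 days but higher by 1.48 at 3 days, and its mean difference of -0.78 ± 2.07 became 0.12 without the arrays of 7 days. Without the SHAM array of 7 days 1 of the 18 passed as higher and 1 as lower, and without both arrays of 7 days 0 and 1.

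**Figure D2:**
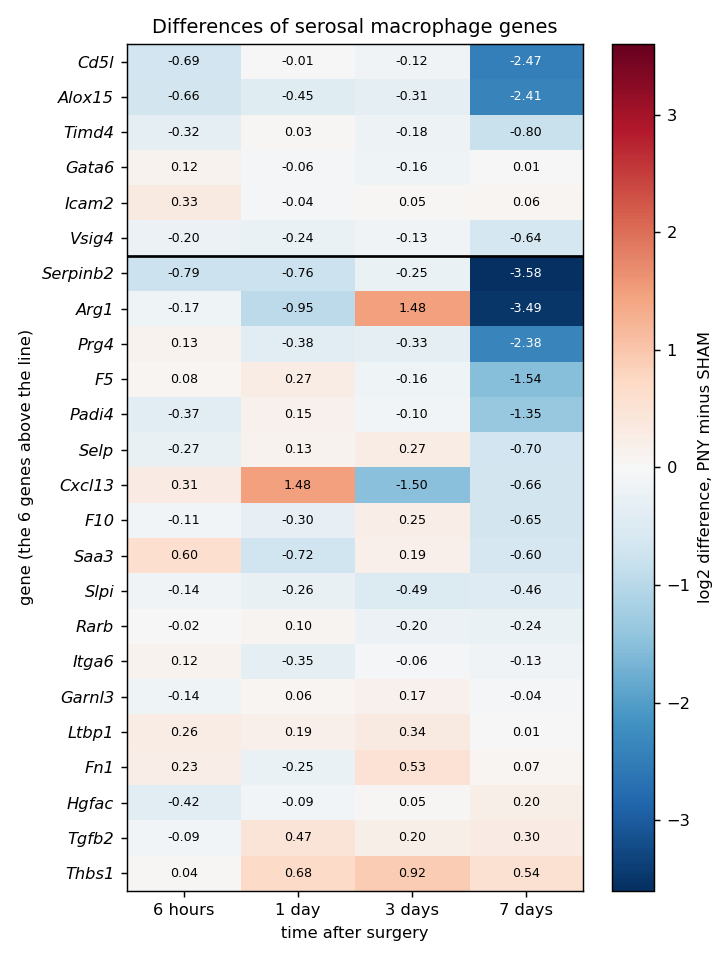
PNY minus SHAM difference of log2 expression at each time after surgery (columns), printed and coloured for the 6 genes (rows above the line) and the 18 other serosal macrophage genes (rows below it, ordered by the value at 7 days); blue is lower in PNY and red higher. The darkest blue lies in the 7-day column, at -2.47 for Cd5l, -2.41 for Alox15 and -3.58 for Serpinb2, and Gata6 and Icam2 are near 0 there.

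Related genes of each member's own pathway were read in the same way, and 0 of them passed the study's thresholds. For Timd4, the 13 other phosphatidylserine receptors and bridging proteins had a median difference of 0.00 at 7 days. Beside 2.08% of all probe sets, 0 of these 13 genes lay 1.5-fold lower. Among them the endothelial receptor Stab2 had a mean difference of 0.29 ± 0.07 and Havcr2, another TIM family receptor, one of -0.25 ± 0.26. For Alox15, the 11 other lipoxygenase pathway genes had a median of -0.25, with 1 of 11 that low. Ltc4s, which makes a leukotriene, had a mean difference of -0.21 ± 0.19, and the lipoxygenase Alox12e had one of 0.20 ± 0.09. For Cd5l, the 10 scavenger receptors had a median of 0.01 and 0 of 10 that low, with 0.29 ± 0.73 for the lymphocyte receptor Cd5 and 0.20 ± 0.21 for the macrophage receptor Marco.

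Complement receptors, the family to which Vsig4 belongs by function, lay lower in PNY at 7 days in all 7 measured, as did 21973 of all 45037 probe sets. Of the 7 genes, 5 lay at least 1.5-fold lower in PNY, beside 2.08% of all probe sets. The median of the 7 was -0.60. Itgam, the alpha chain of complement receptor CR3, was 2.58-fold lower at 7 days, with levels of 6.63 in PNY and 8.00 in SHAM, and had a mean difference of -0.37 ± 0.73. C3ar1, the receptor of a complement fragment, had a mean difference of -0.22 ± 0.37. In the ICAM and LFA-1 group around Icam2 the median was 0.06 and 1 of 5 lay that low (Itgb2, already counted among the 7 complement receptor genes). The integrin chains Itgb2 and Itgal had mean differences of -0.20 ± 0.29 and -0.07 ± 0.31. The 7 GATA family and partner genes around Gata6 had a median of -0.07 and 0 that low, with 0.15 ± 0.20 for Zfpm2 and -0.14 ± 0.10 for Gata2. Of the 9 genes of retinoic acid supply and response, 1 was that low at 7 days and the median was -0.13. Cyp26b1, which degrades retinoic acid, had a mean difference of -0.43 ± 0.72 and the retinol transporter gene Stra6 one of -0.27 ± 0.03. The 8 macrophage growth factors and recruiting chemokines had a median of 0.04 and 0 that low, with -0.17 ± 0.05 for Cx3cl1 and 0.17 ± 0.82 for Ccl2.

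Markers of other cells that lung tissue holds were read beside the 6 genes. The 12 general macrophage genes had a median difference of -0.35 at 7 days. Beside 21973 of all 45037 probe sets, 11 of the 12 lay lower in PNY at that time. Beside 10.8% of all probe sets, 6 of the 12 were highest on the SHAM array of 7 days. Only 1 of the 12 genes lay at least 1.5-fold lower, beside 2.08% of all probe sets. That gene, Itgam, was already counted among the complement receptors above. As a mean over the list, the level of the 12 genes was 9.17 to 9.52 in PNY and 9.16 to 9.68 in SHAM. Fcgr1, a receptor for antibodies, had a mean difference of -0.33 ± 0.22. The 6 B cell genes had a median of -0.69 at 7 days, with 5 of 6 at least 1.5-fold lower, beside 2.08% of all probe sets. Both values include Ighm at its brightest probe set only. The list means were 7.78 to 8.79 in PNY and 7.86 to 8.91 in SHAM. The immunoglobulin heavy chain gene Ighm differed by -2.25 at 7 days but had a mean difference of -0.55 ± 1.73. The study selected this gene too, under an older symbol, but as higher in PNY. Its 11 probe sets did not go together. At 7 days their differences ran from -2.25 to 0.46 with a median of -0.10, 6 of them below 0. Their mean differences ran from -0.55 to 0.52, 3 of them above 0, and 0 of 11 passed the thresholds. Cd79a, a chain of the B cell receptor, had one of -0.36 ± 0.38. B cells of the serosal cavities and of lung cannot be told apart by these genes. The part that macrophages in general or B cells have in the values of the 6 genes was not tested.

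The 10 mesothelial genes, which mark the lining of the cavity, had a median of -0.24 at 7 days. Of the 10, 1 lay at least 1.5-fold lower in PNY, beside 2.08% of all probe sets. Their list means were 9.11 to 10.04 in PNY and 8.69 to 10.05 in SHAM. Msln and Aldh1a2, of which Aldh1a2 makes retinoic acid, had mean differences of 0.19 ± 0.40 and 0.19 ± 0.21. The 10 alveolar macrophage genes had a median of -0.10, the 8 genes of liver, spleen and interstitial resident macrophages 0.11 and the 6 monocyte genes -0.21, with 0 that low in each. Among alveolar macrophage genes the keratin gene Krt79 had a mean difference of -0.38 ± 0.10, lower in PNY at all 4 time points, and the fatty acid binding protein gene Fabp4 one of 0.36 ± 0.70. In the next list these were 0.15 ± 0.27 for the haem-degrading enzyme Hmox1 and -0.10 ± 0.55 for the transcription factor Spic, and among monocyte genes 0.14 ± 0.32 for fibronectin (Fn1) and 0.10 ± 0.08 for the coagulation factor F13a1. Lung epithelial genes (8) had a median of 0.05 and endothelial genes (10), among which Icam2 would belong, -0.03, again with 0 that low. The largest mean differences there were 0.07 ± 0.10 for Ager and 0.06 ± 0.08 for Hopx, both of alveolar type I cells, 0.10 ± 0.23 for the VEGF receptor Kdr and -0.08 ± 0.17 for Ramp2, a receptor partner that the study had selected. The 5 eosinophil genes, a cell type that also uses Alox15, had a median of -0.20 and list means of only 4.40 to 4.65 in PNY and 4.53 to 4.66 in SHAM, below the median level of all probe sets. Siglecf, which alveolar macrophages also express, had a mean difference of -0.21 ± 0.32 and the eosinophil peroxidase Epx one of -0.18 ± 0.34. Of the 5 serosal mast cell genes 1 was that low, Cma1, a mast cell protease with a mean difference of -0.35 ± 0.32 (that of Mcpt4, another, was -0.12 ± 0.22), and the list mean was 5.47 to 5.75 in PNY and 5.56 to 5.88 in SHAM. By the values computed here no gene of these lists passed the study's thresholds.

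Some markers of heart and fat, tissues beside the lung, had their lowest level on the SHAM array of 7 days. It was the lowest of the 8 arrays for 3 of 7 smooth muscle and heart genes and 2 of 4 adipocyte genes, as for 11.2% of all probe sets. The heart genes were Nppa, an atrial hormone, which read 5.52 there and stood at -1.94 relative to the mean of the other SHAM arrays, Myh6 (-1.28) and Tnnt2 (-0.99), and the fat genes were Adipoq (-1.05) and Retn (-0.39). Of these Myh6, Tnnt2 and Retn are named after their values were seen. The 7-day median difference was 0.29 for the smooth muscle and heart genes, 0.09 for the adipocyte genes and -0.37 for the thymocyte genes. Of the 5 thymocyte genes 1 lay at least 1.5-fold lower, beside 2.08% of all probe sets. The part that the tissue taken with the lung has in the values of the 6 genes was not tested. In these lists 1 of 7 smooth muscle and heart genes rose (Nppa, 0.77 ± 0.98, also selected by the study), 1 of 5 thymocyte genes rose (Rag1, 1.41 ± 3.06, through the PNY array of 1 day, 5.98 above SHAM) and 0 of 4 adipocyte genes passed. Mean differences were 0.36 ± 0.11 for the smooth muscle gene Cnn1, 0.59 ± 1.51 for Dntt of thymocytes, 0.49 ± 0.88 for Adipoq and -0.15 ± 0.47 for Cidec of fat cells.

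**Figure D3:**
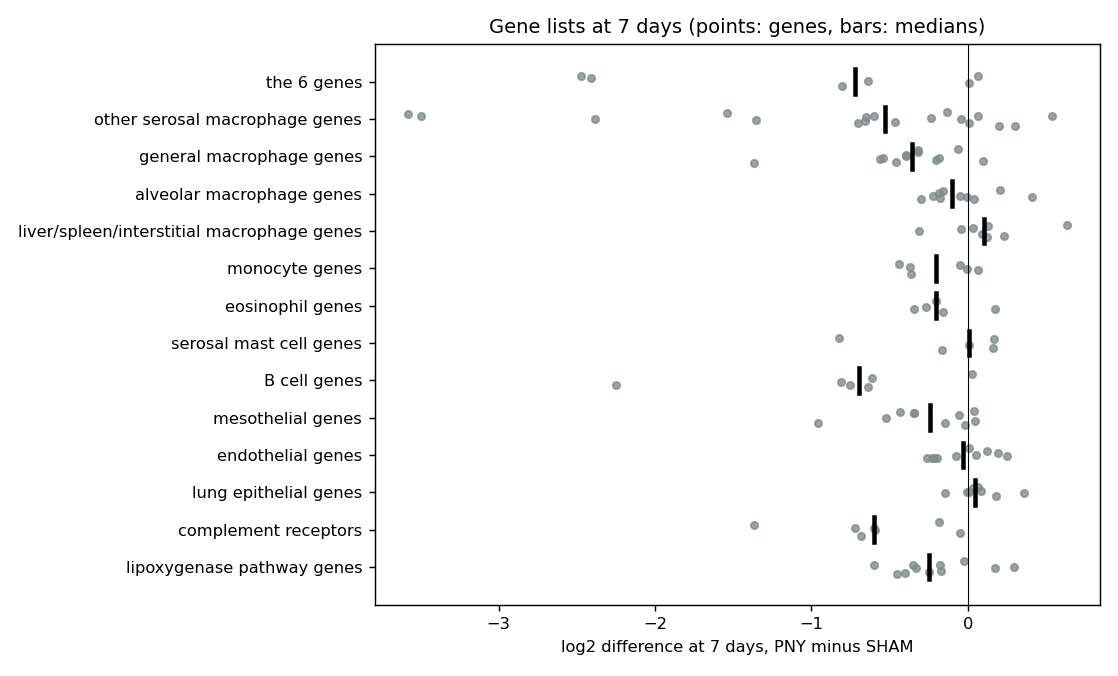
PNY minus SHAM difference of log2 expression at 7 days (horizontal axis) for each gene (points, spread vertically for sight) of the 6 genes and 13 of the gene lists (rows), with the list median as a black bar. The medians of the 6 genes (-0.72), of B cell genes (-0.69), of complement receptors (-0.60) and of the other serosal macrophage genes (-0.53) lie furthest to the left, and those of epithelial and endothelial genes are near 0. Each gene is shown at its brightest probe set, also Ighm of B cells, whose probe sets did not go together. Some genes stand in several lists.

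The genes whose levels went most closely with each member over the 8 arrays were sought among 3963 genes above the median level with an SD of at least 0.2. These correlations describe 8 arrays that share their time course. For Cd5l the nearest were Neurl3 (Pearson r 0.973), Map4k1 (0.957) and Padi4 (0.952), and without the SHAM array of 7 days their r was 0.966, 0.956 and 0.927. For Alox15 they were Serpinb2 (0.982), Cfp (0.938) and Emilin2 (0.934), with 0.873, 0.706 and 0.490 without that array. Timd4 went with Icos (0.953), Fcna (0.909) and Nhsl2 (0.838), which stayed at 0.924, 0.823 and 0.772. For Vsig4 the nearest were Alox15 (0.860), Serpinb2 (0.848) and Lrp5 (0.800), and without that array r was 0.085, 0.001 and 0.527, so that the likeness of Vsig4 to Alox15 and Serpinb2 rested on that 1 array.

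Gata6 went with Swi5 (0.946), Csrp2 (0.945) and Cnpy2 (0.936), and Icam2 with Ptbp1 (0.990), Far1 (0.989) and Sirpa (0.983). Of these 6 genes Far1 had the largest difference between the surgeries at 7 days, 0.15. Among the members themselves, Cd5l and Alox15 had an r of 0.83 over the 8 arrays and 0.78 without SHAM of 7 days. Timd4 and Alox15 had 0.81 and 0.48, and Gata6 and Icam2 had 0.67 and 0.73. Vsig4 had 0.86 and 0.08 with Alox15, 0.67 and 0.00 with Timd4, and 0.45 and -0.46 with Cd5l. Cd5l and Timd4 had 0.56 and 0.15. Cd5l went about as closely with Gata6 (0.60 and 0.79) and with Icam2 (0.57 and 0.45) as with Timd4 over the 8 arrays. Timd4 had -0.14 and -0.21 with Gata6 and -0.18 and -0.77 with Icam2. Without SHAM of 7 days, the likeness among the 4 genes highest on it was thus kept above 0.5 only between Cd5l and Alox15.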

How the data were processed

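Lung RNA pooled from 8 mice was hybridised to 8 Affymetrix Mouse Genome 430 2.0 arrays. The deposited log2 values were made by the authors with RMA (background correction, quantile normalization, 1 value per probe set; version not given in the sources used here). The log base was inferred from the range of the values. Control probe sets (64 of 45101) were left out with no other filter, and 34945 probe sets carried 1 gene symbol. Rank products over the 16 PNY and SHAM pairs (1000 permutations, 100 for alternatives) were computed after the study's methods by a program of this work (Python 3.11.15, numpy 2.4.6, pandas 2.3.3) and were tested on simulated data. The time contrast and the interaction were fitted with limma 3.58.1 in R 4.3.3. The p-values measure no spread between mice, and the number of arrays limits the precision.

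The 6 genes and the 22 gene lists (195 entries, 11 of them not analysed here) were chosen with earlier results of these data known. The genes named are the 6 genes, in each list those past the rank product threshold and the 2 with the largest mean difference, and the 3 genes of highest correlation with each member. How each array departed from the mean of its surgery correlated between PNY and SHAM within time points (r of 0.605, 0.357, 0.302 and 0.295 in order of time), so time point pairs the arrays, although PNY of 7 days with SHAM of 3 days gave 0.340. Alternatives were centring, a second quantile normalization, a filter at the median level, averaging all probe sets of a gene, time point as a block, limma in place of rank products, no minimum fold change, other settings of the limma fits and each array left out.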

Additional observations from a re-analysis of the deposited data

Results flagged for a closer look

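On the SHAM arrays, Alox15 stood out at 7 days: the gap between its highest value (8.03) and the next (6.32) was 0.844 of the range of the 4 arrays, above Dixon's critical value for 4 values. It was the 1 such case among 48 groups of 4 arrays looked at, where chance gives about 1 in 20. The 4 values are different time points, not repeats of one condition.

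Of 24 genes looked at (the 6 genes and the 18 other serosal macrophage genes), 3 differed one way between the surgeries at both early times and the other way at both late times, and these 3 are named here after their values were seen. How many of all probe sets did so was not counted, so nothing is read from this count of 3. F5, a coagulation factor, differed by 0.08, 0.27, -0.16 and -1.54 in order of time, a mean of 0.17 over the early times. Cxcl13, a chemokine that attracts B cells, differed by 0.31, 1.48, -1.50 and -0.66, with an early mean of 0.89. Hgfac, a protease that activates a growth factor, differed by -0.42, -0.09, 0.05 and 0.20, with an early mean of -0.25. The change from early to late times passed an adjusted p of 0.05 in limma for 0 of 45037 probe sets, these included, with 1246 at an unadjusted p under 0.05, and was not tested in any other way.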

How the results depend on the processing

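The count of 2 of the 6 genes past the rank product thresholds did not change with centring, a second quantile normalization, a filter at the median level (4 genes left), averaging all probe sets of a gene or no minimum fold change. With time point as a replicate block it was 2 as well, with 169 of all probe sets called against 167 without the block. With limma in place of rank products it was 0, and with limma and time point as a replicate block it was 0; limma called 0 of all probe sets at an adjusted p of 0.05 and 902 at an unadjusted p under 0.05. Leaving out 1 array at a time gave 0 to 2: 0 without SHAM of 7 days and 1 without PNY of 6 hours, where Alox15 passed alone. Leaving out both arrays of 7 days gave 0. In the same setting the count of other serosal macrophage genes past the thresholds was 1 in place of 3. The 2 genes and these 3 had been selected by the study on these arrays, so nothing is read from how the counts hold. The mean differences of Timd4, Gata6, Icam2 and Vsig4 moved by less than 1 SD of their 4 differences in every alternative run, but these SDs are as large as most of the differences: with arrays left out, Timd4 ranged from -0.40 to -0.16, Vsig4 from -0.40 to -0.12, Icam2 from -0.05 to 0.21 and Gata6 from -0.09 to 0.05. The time contrast called 0 of the 6 genes in each of 15 settings (4 genes with the filter). The smallest adjusted p (limma) among them ranged from 0.0696 to 0.277. Over all probe sets or genes tested it called 1 to 129, but 3336 where 1, 3 and 7 days were set against 6 hours, which is another contrast. The change of the surgery difference called 0 of the genes with all arrays kept, at adjusted p (limma) of 0.916 or more. With 1 array left out, another stood alone in its surgery and period, so those fits are not read. Timd4 and Vsig4 lie below the median level, and how far background enters their values was not tested. The differences at single time points have 1 array on each side and no measure of error.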
